A study of Homo sapiens with 21 samples.

Results

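The protein-coding genes of the HOXA, HOXB and HOXC clusters were followed in A673, a cell line from a Ewing sarcoma, in which the EWS/FLI fusion had been depleted and then replaced by mutant forms. The genes were taken by name and not by any measured value, and they comprised 29 of the 57820 genes in the count table, 10 of HOXA, 10 of HOXB and 9 of HOXC. RNA-seq counts were available for 21 libraries in 7 groups of 3. The shRNA used for depletion binds outside the coding part of the fusion mRNA, and it was delivered by retrovirus ahead of a cDNA that carried a 3X-FLAG tag, and all cells were selected with puromycin and hygromycin.

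The iLuc group received an shRNA to luciferase and an empty vector, and so kept its own fusion (its difference from iEF is the endo-EF profile). The iEF group received the fusion shRNA and the empty vector. The other groups received the same fusion shRNA and a cDNA: wildtype EWS/FLI in WT-EF, a form without the EWS domain in Δ22, a full-length form with alanines for tyrosines in the N-terminal repeats of EWS in DAF, a shortened form lacking much of the inside of EWS in mut9, and that shortened form with alanines for its repeat tyrosines in DAF-mut9. All 7 groups are pools of retrovirally transduced cells of 1 line, and nothing in the labels shows how independent the 3 replicate sets were beyond their numbers, so p-values measure the spread between these libraries. The DAF-mut9 libraries were identified from column names that fit no other group, and every DAF-mut9 value rests on that reading.

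HOX proteins are homeodomain transcription factors that give positions along the body axis their identity. Their genes lie in tandem in each cluster and are numbered by paralog group, low numbers at the end that is switched on first and used toward the head, high numbers at the end used toward the tail and in the distal limb. PBX and MEIS proteins bind DNA together with many HOX proteins, retinoic acid induces the low-numbered end, and Polycomb and trithorax group complexes hold the clusters silent or active.

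The libraries held 32.9 to 46.2 M counts, so that 3 counts, used here as the limit of detection, corresponded to 0.0663 to 0.0939 CPM (counts per M library counts after TMM scaling). FLI1, whose reads include those of the fusion, its cDNA forms and any unrearranged allele, measured 20.02 to 21.1 CPM in iEF and 60.6 to 89.0 CPM in iLuc, a log2 difference of 1.75 ± 0.14 (SE, edgeR quasi-likelihood adjusted p = 1.33e-09). FLI1 was above iEF by 1.25 in Δ22, 0.84 in DAF, 0.57 in mut9 and 0.81 in DAF-mut9 on the log2 scale, whereas the WT-EF difference of 0.24 ± 0.13 did not pass the test (adjusted p = 0.196). Between groups compared directly below, FLI1 was higher in DAF than in WT-EF (0.60 ± 0.13, adjusted p = 0.00173). It was lower in WT-EF than in iLuc (-1.51 ± 0.13, adjusted p = 7.36e-08). FLI1 was not called in mut9 against WT-EF or in DAF-mut9 against mut9 (adjusted p = 0.170 and 0.317). The first of these pairs passed when only its own libraries were fitted (0.29, adjusted p = 0.0272). These reads mix the construct with the cell's own fusion, and the part of construct levels in the HOX differences was not tested. The Ewing sarcoma genes STEAP1 (36.4 to 163 CPM), NR0B1 (5.28 to 60.1 CPM) and NKX2-2 (0.747 to 11.01 CPM) were present in every library, CD99 never exceeded 8 counts under this counting although it marks these tumours, and the leukocyte, epithelial and liver genes PTPRC, EPCAM and ALB stayed at or under 0.871 CPM.

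HOXB was the most strongly transcribed of the 3 clusters and HOXA was close to the limit of detection. Over all libraries the HOXB genes, on chromosome 17, collected 71834 counts, the HOXC genes, on chromosome 12, 30089 counts, and the HOXA genes, on chromosome 7, 115 counts. In iEF the summed HOXB level was 88.5 ± 5.24 CPM (SD, n = 3), the HOXC level 35.5 ± 1.96 CPM and the HOXA level 0.225 ± 0.158 CPM. Per kilobase of annotated exon, the highest level in iEF was that of HOXB7, at 13.2 ± 2.00 CPM per kb, which did not overlap the next. HOXC9 (8.07 ± 0.256), HOXB9 (6.77 ± 2.34) and HOXB2 (6.29 ± 1.11 CPM per kb) followed, and each of these overlapped its neighbour in the order. The order then ran through HOXB4 (3.79 ± 0.788) and HOXC10 (2.67 ± 0.349) to HOXC13 (0.455 ± 0.00958), HOXB5 (0.408 ± 0.0556), HOXC5 (0.193 ± 0.0519) and HOXC4 (0.0901 ± 0.0404 CPM per kb). Levels did not follow the paralog number, since low values at HOXB5, HOXC4 and HOXC5 lay beside high ones at HOXB4, HOXB7 and HOXC9. The levels of HOXC4 and HOXC5 are uncertain, because their exons overlap those of other genes.

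**Figure D1:**
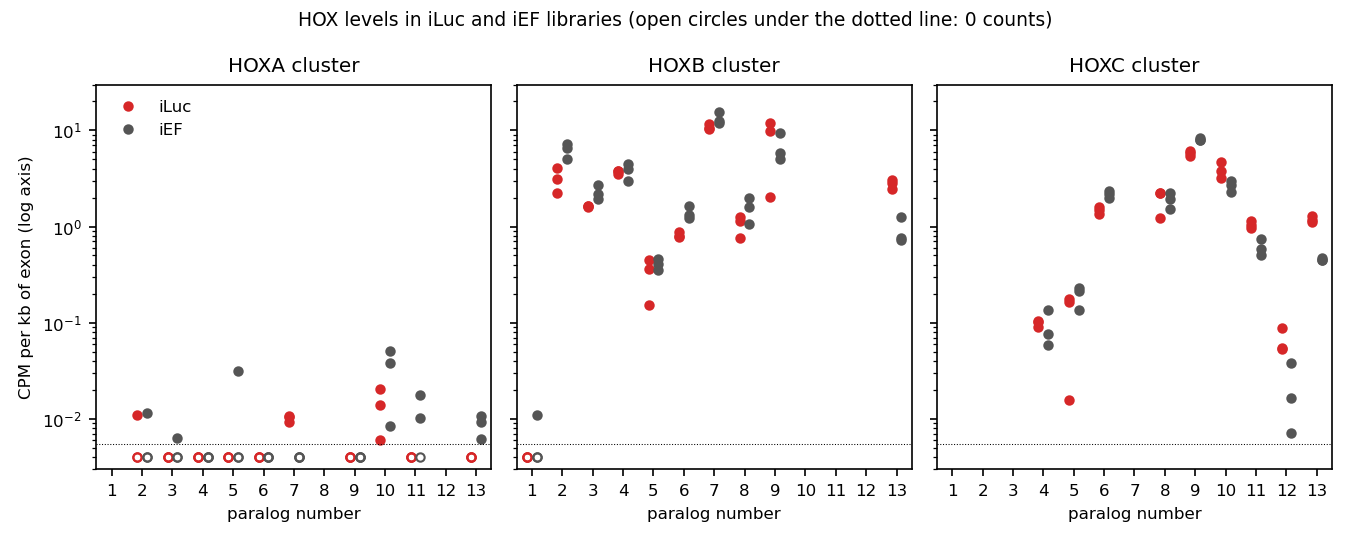
HOX levels by paralog number in the 3 iLuc (red) and 3 iEF (grey) libraries, in CPM per kb of exon on a log axis, 1 point per library; open circles under the dotted line are libraries with 0 counts. HOXA points lie near or at 0, HOXB7 is highest in both groups, and 1 iLuc library lies well below the others at HOXB9.

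Of the 29 genes, 12 were too low to judge, meaning that no group reached a mean of 10 counts. These were all 10 HOXA genes, HOXB1 and HOXC12. HOXA4 and HOXA9 had 0 counts in every library, and 9 of the 10 HOXA genes never exceeded 3 counts. HOXA10 reached at most 9 counts, in a DAF library. HOXB1, the hindbrain gene at the low-numbered end, never exceeded 2 counts. At this depth the 9 HOXA genes other than HOXA10, and HOXB1, were not detectable above the limit, which is not the same as absent. HOXA10 exceeded the limit in some libraries, with up to 7 counts in iEF and 6 in DAF-mut9. HOXC12 held 7, 13 and 7 counts in iLuc and 6, 12 and 6 in WT-EF, against 1, 4 and 2 in iEF and at most 4 in each of Δ22, DAF, mut9 and DAF-mut9. HOXC12 and HOXA10 passed the filter of a mean of 1 count per library, as did the 17 genes that could be judged, so 19 of the 29 were tested. Untested genes could not be called, so the shares of all tested genes given below are to be read against these 19.

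Cells that kept their fusion had more RNA from several genes of paralogs 10 to 13, and less from some lower-numbered ones, than depleted cells. In iLuc against iEF, 5 of the 29 genes (19 of them tested) were higher, where 18.7% of all tested genes were higher. Another 5 were lower, where 22.4% were lower, so neither count sets these genes apart from the rest. The higher calls were HOXB13, HOXC10, HOXC11, HOXC12 and HOXC13, all from paralogs 10 to 13, and the lower calls were HOXB2, HOXB3, HOXB6, HOXC6 and HOXC9, from paralogs 2 to 9. The median log2 difference was -0.75 over the 2 judged genes of paralogs 1 to 3, -0.35 over the 9 of paralogs 4 to 8 and 0.67 over the 6 of paralogs 9 to 13, beside 0.01 over all tested genes. Only 2 of the 9 judged genes of paralogs 4 to 8 were called lower. With only iLuc and iEF fitted, HOXB2, HOXB13 and HOXC13 kept their calls and the others lost theirs. Over all tested genes that fit called 8768, where the main fit called 12560.

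HOXB13, the last gene of its cluster and a factor of the tail end and the prostate, measured 9.25, 8.66 and 7.47 CPM in iLuc and 2.33, 3.79 and 2.22 CPM in iEF. The groups did not overlap, and the log2 difference was 1.63 ± 0.19 (adjusted p = 4.38e-07). HOXC13, a regulator of hair and nail keratins, measured 2.72, 2.63 and 3.01 CPM in iLuc and 1.10, 1.06 and 1.05 CPM in iEF. Every iLuc library stood above every iEF library at HOXC13, by 1.37 ± 0.22 on the log2 scale (adjusted p = 3.63e-05). HOXC10, a gene of the lumbar region and hindlimb, measured 11.2, 8.99 and 7.49 CPM against 6.44, 7.10 and 5.46 CPM, a difference of 0.55 ± 0.18 (adjusted p = 0.0199). HOXC11, its neighbour toward the tail end, measured 3.18, 3.71 and 3.41 CPM against 1.63, 2.44 and 1.89 CPM, a difference of 0.80 ± 0.24 (adjusted p = 0.0101). Without iLuc replicate 1 or iEF replicate 3 the HOXC10 difference (0.34 and 0.46, adjusted p = 0.163 and 0.0885) no longer passed, nor did that of HOXC11 without iEF replicate 1 or 3 (adjusted p = 0.0524 and 0.0506). HOXC12 stands among the higher calls (adjusted p = 0.0214) on the few counts given above. Without iLuc replicate 2, iEF replicate 1 or iEF replicate 3 its adjusted p was 0.0654, 0.113 and 0.0559. With only iLuc and iEF fitted by edgeR, HOXC10, HOXC11 and HOXC12 did not pass (adjusted p = 0.119, 0.0569 and 0.104).

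HOXB2, which acts in the hindbrain and neural crest, measured 9.91, 7.67 and 5.54 CPM in iLuc and 17.7, 16.2 and 12.4 CPM in iEF. It was lower in iLuc with no overlap, by a log2 difference of -1.01 ± 0.19 (adjusted p = 0.000211). HOXB3, its neighbour, measured 12.3, 12.1 and 11.7 CPM against 20.1, 16.3 and 14.2 CPM, a difference of -0.49 ± 0.14 (adjusted p = 0.00689), which did not pass without iEF replicate 1 (-0.32, adjusted p = 0.0828). HOXB6 measured 2.03, 2.06 and 2.31 CPM against 4.29, 3.16 and 3.46 CPM, a difference of -0.76 ± 0.16 (adjusted p = 0.000594). In HOXC, the thoracic gene HOXC6 measured 5.16, 4.69 and 5.49 CPM against 8.08, 7.54 and 6.78 CPM, a difference of -0.55 ± 0.15 (adjusted p = 0.00481). HOXC9, which marks thoracic levels, measured 9.63, 10.1 and 8.97 CPM against 13.9, 13.3 and 13.1 CPM, a difference of -0.49 ± 0.14 (adjusted p = 0.00826). At HOXB2, HOXB3, HOXB6, HOXC6 and HOXC9 the highest iLuc library lay below the lowest iEF library. With only iLuc and iEF fitted by edgeR, HOXB3, HOXB6, HOXC6 and HOXC9 did not pass (adjusted p = 0.137, 0.0807, 0.149 and 0.130).

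HOXB9, a thoracic gene, measured 25.5, 30.5 and 5.21 CPM in iLuc and 12.95, 15.2 and 24.4 CPM in iEF. The third iLuc library lay far below the other 2 and below every iEF library, so the groups overlapped and the difference of 0.22 ± 0.39 did not pass (adjusted p = 0.706). Without iLuc replicate 3 the difference was 0.80 (adjusted p = 0.00591). HOXB8 measured 2.72, 3.01 and 1.83 CPM in iLuc and 4.76, 3.88 and 2.54 CPM in iEF, a difference of -0.57 ± 0.28 that did not pass (adjusted p = 0.117), although it did without iEF replicate 3 (-0.84, adjusted p = 0.0264), with no filter on low counts (adjusted p = 0.0418) and on the ComBat values, the authors' counts adjusted for replicate set (adjusted p = 0.0459). HOXB4, a gene of the cervical region and of blood progenitors, and HOXC8, a thoracic gene, gave differences of -0.02 ± 0.17 and -0.01 ± 0.20, HOXB5 one of -0.35 ± 0.32 and HOXB7 one of -0.28.

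**Figure D2:**
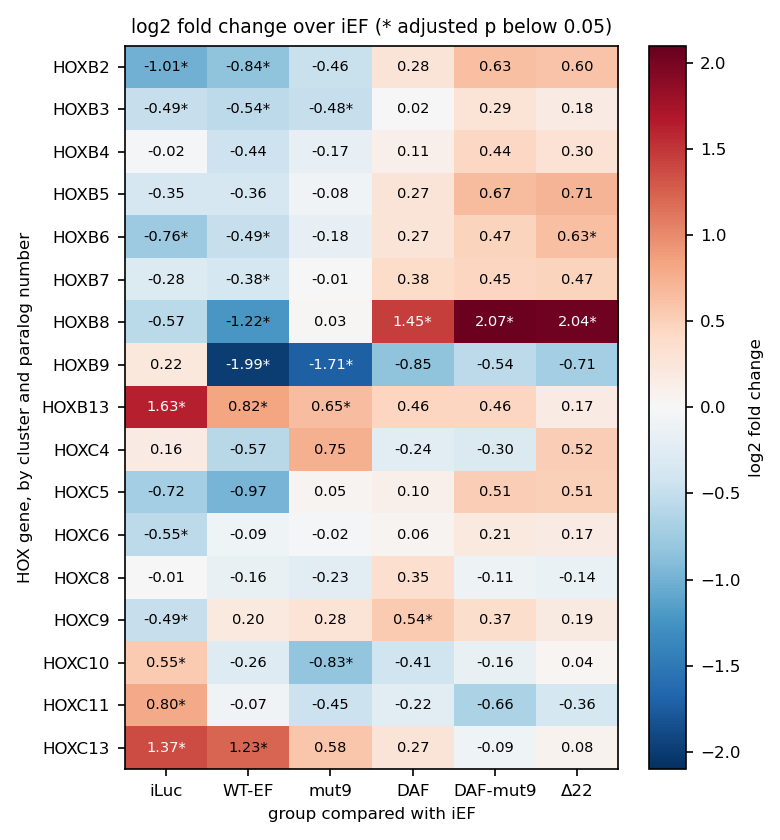
log2 fold change over iEF of the 17 judged HOX genes (rows, by cluster and paralog number) in the 6 other groups (columns), coloured blue for lower and red for higher, with a star where the adjusted p was below 0.05. HOXB2 to HOXB8 are blue or near white in iLuc and WT-EF and red or near white in DAF, DAF-mut9 and Δ22, and HOXB8 is the deepest red, at 2.07 in DAF-mut9 and 2.04 in Δ22.

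Cells rescued with wildtype EWS/FLI had less RNA from most of HOXB and more from HOXB13 and HOXC13 than depleted cells. In WT-EF, 2 of the 29 genes (19 of them tested) were higher (11.4% of all tested genes) and 6 were lower (16.9% of all tested genes). The lower genes were HOXB2, HOXB3, HOXB6, HOXB7, HOXB8 and HOXB9. The summed HOXB level was 57.4, 55.4 and 53.6 CPM in WT-EF against 94.5, 86.2 and 84.8 CPM in iEF, with no overlap, while the HOXC sum was 36.8 ± 1.37 against 35.5 ± 1.96 CPM (SD, n = 3). In cells taken in bulk, fewer cells with a transcript and less transcript per cell cannot be told apart.

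HOXB9 gave the largest of these differences. It measured 3.53, 5.93 and 4.05 CPM in WT-EF, below every iEF library, a log2 difference of -1.99 ± 0.41 (adjusted p = 0.000786). HOXB8 measured 1.80, 1.52 and 1.498 CPM, also below every iEF library, with a difference of -1.22 ± 0.29 (adjusted p = 0.00326). HOXB2 measured 9.83, 7.96 and 7.98 CPM, a difference of -0.84 ± 0.19 (adjusted p = 0.00187). These 3 calls were kept in each fit that left out a library. HOXB3 measured 10.8, 11.2 and 12.9 CPM and differed by -0.54 ± 0.14 (adjusted p = 0.00522), or by -0.38 without iEF replicate 1 (adjusted p = 0.0582). HOXB6 measured 3.08, 2.15 and 2.58 CPM, a difference of -0.49 ± 0.16 (adjusted p = 0.0250). HOXB7, the highest gene of the cluster per kb, measured 17.4, 14.8 and 14.3 CPM, a difference of -0.38 ± 0.13 (adjusted p = 0.0325). Leaving out iEF replicate 1, WT-EF replicate 2 or WT-EF replicate 3 ended the calls of HOXB6 (adjusted p = 0.1004, 0.116 and 0.0871) and HOXB7 (adjusted p = 0.215, 0.115 and 0.160), and the fit without a term for the replicate set did so for HOXB6 (adjusted p = 0.0645).

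HOXB13 measured 4.78, 5.22 and 4.52 CPM in WT-EF, above every iEF library and below every iLuc library. It was 0.82 ± 0.19 above iEF (adjusted p = 0.00206) on the log2 scale. HOXC13 measured 2.11, 2.42 and 3.14 CPM, a difference of 1.23 ± 0.22 from iEF (adjusted p = 0.000228). HOXC10 and HOXC11 did not move with these: HOXC10 differed from iEF by -0.26 and HOXC11 by -0.07, and neither passed. HOXC12, too low to judge, held 6, 12 and 6 counts in WT-EF against 1, 4 and 2 in iEF. The main fit did not call HOXC12. It was higher on the ComBat values (1.51, adjusted p = 0.0246) and without iEF replicate 2 (2.07, adjusted p = 0.0457).

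Set directly against iLuc, WT-EF had 2 of the 29 genes higher (9.78% of all tested genes) and 4 lower (8.52%). HOXC9 was higher by 0.69 ± 0.14 (adjusted p = 0.00142) and HOXC6 by 0.46 ± 0.15 (adjusted p = 0.0322), and neither of these 2 genes was called in WT-EF against iEF. HOXB13 was lower by a log2 difference of -0.81 ± 0.18 (adjusted p = 0.00296), HOXC10 by -0.81 ± 0.18 (adjusted p = 0.00317) and HOXC11 by -0.87 ± 0.24 (adjusted p = 0.0124). HOXC11 did not pass without iLuc replicate 2 or WT-EF replicate 1 (adjusted p = 0.0570 and 0.0952), and HOXC6 did not without iLuc replicate 1 or 2 or WT-EF replicate 1 or 2 (adjusted p = 0.0643, 0.110, 0.146 and 0.0771). HOXB9 was lower in WT-EF than in iLuc by -2.20 ± 0.41 (adjusted p = 0.000569), although the third iLuc library, at 5.21 CPM, lay inside the WT-EF range. Without that library the difference was -2.74. HOXC13 and HOXB2 were not called in this comparison, at 2.56 and 2.79 CPM and at 8.59 and 7.71 CPM on average in WT-EF and iLuc.

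A high level of HOXB8 was measured in Δ22, DAF and DAF-mut9. Relative to iEF, 2 of the 29 genes were higher in Δ22 (0.881% of all tested genes), HOXB8 and HOXB6, 2 in DAF (3.41%), HOXB8 and HOXC9, and 1 in DAF-mut9 (1.26%), HOXB8. By edgeR none was lower in Δ22, DAF or DAF-mut9, where 1.79%, 4.02% and 2.14% of all tested genes were lower, nor by DESeq2, while 0, 2 and 1 had an unadjusted p below 0.05 in that direction. With no filter on low counts, edgeR did call HOXB9 lower in each of these groups (adjusted p = 0.00220, 9.85e-05 and 0.0390), and in DAF also when only the compared groups were fitted (adjusted p = 0.0461). Dropping the filter also raised the calls over all tested genes, from 817 to 2144 in Δ22, 2268 to 3289 in DAF and 1038 to 2243 in DAF-mut9. The HOXB9 differences without the filter were -0.73, -0.86 and -0.57, close to those of the main fit given below.

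HOXB8, a gene of the trunk spinal cord and of myeloid progenitors, measured 9.65, 13.2 and 23.6 CPM in Δ22 and 4.76, 3.88 and 2.54 CPM in iEF. Each Δ22 library stood above each iEF library although the Δ22 libraries spread widely, and the log2 difference was 2.04 ± 0.28, a 4.11-fold higher level (adjusted p = 0.000705). In DAF-mut9 HOXB8 measured 15.5, 16.9 and 14.8 CPM, a difference of 2.07 ± 0.28 or 4.19-fold (adjusted p = 0.000339). In DAF it measured 7.89, 11.6 and 11.5 CPM, a difference of 1.45 ± 0.28 or 2.74-fold (adjusted p = 0.00215). The call for HOXB8 was kept in these 3 groups under every alternative run. In mut9, at 3.63, 4.001 and 3.84 CPM, HOXB8 lay among the iEF libraries and differed by 0.03 ± 0.28 (adjusted p = 0.975). Its order on average therefore ran from WT-EF (1.61 CPM) through iLuc (2.52), iEF (3.73) and mut9 (3.82) to DAF (10.3), Δ22 (15.5) and DAF-mut9 (15.7 CPM).

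Among these 3 groups the differences in HOXB8 were compared after the values had been seen. DAF lay below Δ22 by a log2 difference of -0.59 (95% interval -1.10 to -0.07) and below DAF-mut9, which was higher by 0.61 (95% interval 0.10 to 1.13), but neither passed the correction over all genes in the fit over all libraries (adjusted p = 0.540 and 0.507, with 0.972% and 0.946% of all tested genes called). The lowest Δ22 library lay among the DAF libraries, whereas every DAF-mut9 library stood above every DAF library, and that pair passed when only its own 6 libraries were fitted (0.63, adjusted p = 0.0205). DAF-mut9 and Δ22 differed by 0.03 (95% interval -0.48 to 0.54, adjusted p = 1). In that last pair 0% of all tested genes were called by edgeR and by DESeq2, while 283 and 388 were higher and lower at an unadjusted p below 0.05.

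**Figure D3:**
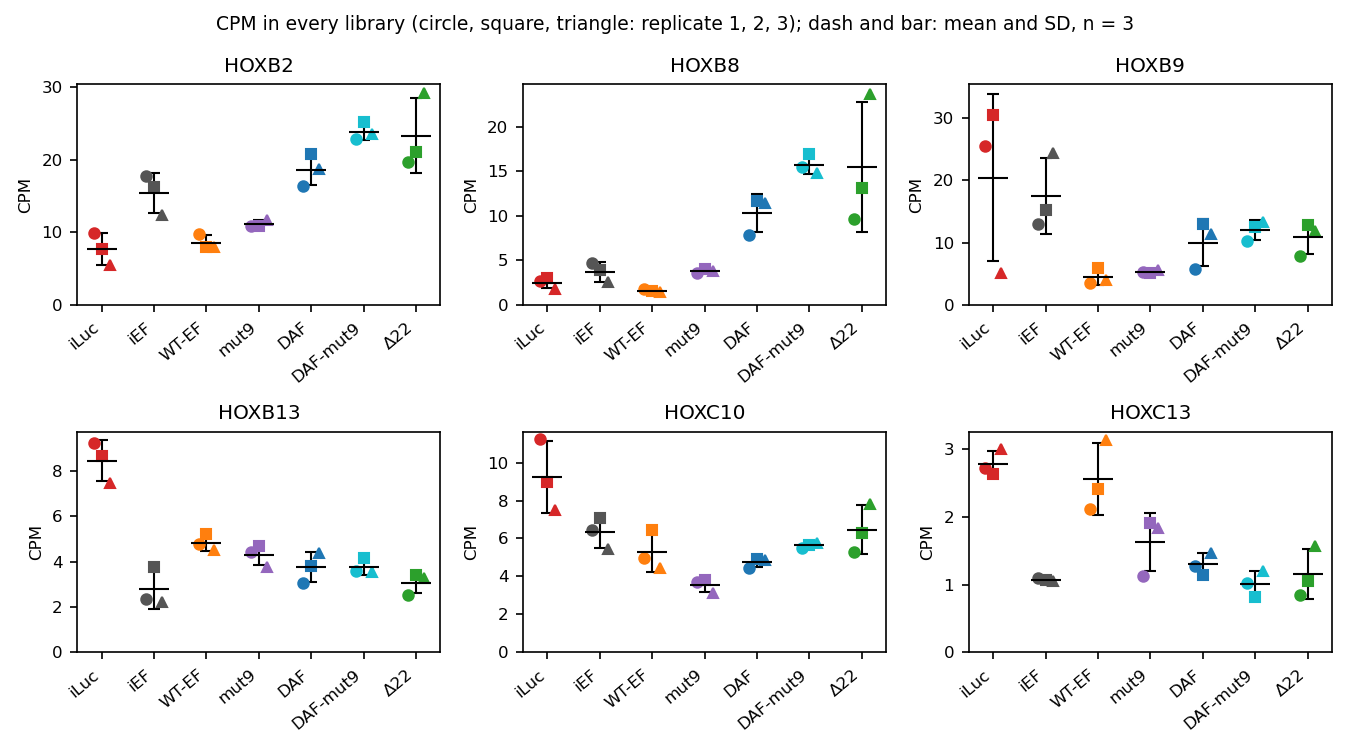
CPM of 6 HOX genes in every library, in 7 groups of 3, with circle, square and triangle for replicates 1, 2 and 3, a dash for the mean and a bar for the SD (n = 3). HOXB8 is high in DAF, DAF-mut9 and Δ22. HOXB2 is highest on average in DAF-mut9 and Δ22, and in DAF its libraries overlap those of iEF. HOXB9 is low in WT-EF and mut9 and scattered in iLuc, and HOXB13 and HOXC13 are highest on average in iLuc.

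Apart from HOXB6 in Δ22, no other HOXB gene was called by edgeR in these groups, whereas DESeq2 also called HOXB7 in all 3 and HOXB2 and HOXB6 in DAF-mut9. In Δ22 HOXB6 measured 5.73, 5.00 and 6.08 CPM, above the 4.29, 3.16 and 3.46 CPM of iEF, with a difference of 0.63 ± 0.15 (adjusted p = 0.0307). This call was lost without iEF replicate 2 or 3 or Δ22 replicate 1, 2 or 3 (adjusted p = 0.0670, 0.150, 0.0546, 0.0964 and 0.175) and without a term for the replicate set (adjusted p = 0.101). The HOXB6 exons overlap those of HOXB3 over 16.6% of their length and, on the opposite strand, those of the antisense transcript HOXB-AS3 over 16.3%, and HOXB-AS3 was itself 1.18 ± 0.29 higher in Δ22 (adjusted p = 0.0313). The HOXB-AS3 call was lost, as that of HOXB6 was, without iEF replicate 2 or 3, Δ22 replicate 1, 2 or 3 or the replicate term (adjusted p = 0.0931, 0.196, 0.0928, 0.0823, 0.130 and 0.0909). HOXB2 differed from iEF by 0.60 in Δ22 and 0.63 in DAF-mut9, and was not called by edgeR, but passed in both with no filter on low counts (adjusted p = 0.0171 and 0.00975) and on the ComBat values (adjusted p = 0.0483 and 0.0233), and in DAF-mut9 by DESeq2 (adjusted p = 0.0277). HOXB7 differed by 0.47 in Δ22, 0.38 in DAF and 0.45 in DAF-mut9 and fell just short by edgeR in Δ22 (adjusted p = 0.0520). It passed in all 3 groups by DESeq2 (adjusted p = 0.00777, 0.0262 and 0.00959), with edgeR's own filter on low counts, filterByExpr, and without iEF replicate 1 (0.60, 0.51 and 0.58, adjusted p = 0.0205, 0.0283 and 0.0227), and in Δ22 and DAF-mut9 also with RLE scaling and on the ComBat values. HOXB9 lay in the other direction, at 7.82, 12.9 and 11.9 CPM in Δ22, 5.70, 12.9 and 11.4 CPM in DAF and 10.2, 12.5 and 13.3 CPM in DAF-mut9 against 12.95, 15.2 and 24.4 CPM in iEF. The Δ22 and DAF libraries lay below all iEF libraries and those of DAF-mut9 overlapped them, and the differences of -0.71 ± 0.39, -0.85 ± 0.39 and -0.54 ± 0.39 did not pass (adjusted p = 0.442, 0.233 and 0.581). The summed HOXB level was 116 ± 17.9 CPM in Δ22, 120 ± 0.965 CPM in DAF-mut9 and 99.6 ± 10.9 CPM in DAF (SD, n = 3). HOXC9 measured 19.0, 18.6 and 21.3 CPM in DAF against 13.9, 13.3 and 13.1 CPM in iEF, with a difference of 0.54 ± 0.14 (adjusted p = 0.0193). It did not pass without iEF replicate 3 or DAF replicate 1 or 3 (adjusted p = 0.0917, 0.0568 and 0.0840).

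In cells rescued with the shortened form mut9, 1 of the 29 genes was higher than in iEF (6.22% of all tested genes) and 3 were lower (8.33%). HOXB9 measured 5.23, 5.11 and 5.64 CPM in mut9, below every iEF library, by a log2 difference of -1.71 ± 0.40 (adjusted p = 0.00543). HOXC10 measured 3.70, 3.80 and 3.14 CPM against 6.44, 7.10 and 5.46 CPM, a difference of -0.83 ± 0.19 (adjusted p = 0.00377), which is opposite in direction to its difference in iLuc. These 2 calls were kept whichever library was left out. HOXB3 measured 11.3, 12.004 and 13.1 CPM and differed by -0.48 ± 0.14 (adjusted p = 0.0219). HOXB13 measured 4.44, 4.69 and 3.78 CPM and differed by 0.65 ± 0.19 (adjusted p = 0.0218), its lowest mut9 library lying just under the highest iEF library of 3.79 CPM. HOXB3 was not called without iEF replicate 1 or 2 or mut9 replicate 1 or 2 (adjusted p = 0.164, 0.0503, 0.0906 and 0.0615), and HOXB13 was not without iEF replicate 1 or 3 or mut9 replicate 1 or 2 (adjusted p = 0.0927, 0.134, 0.101 and 0.0660).

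Against WT-EF directly, mut9 had 1 of the 29 genes higher (4.95% of all tested genes) and 1 lower (1.2%). HOXB8 was higher by 1.24 ± 0.29 (adjusted p = 0.0121), its 3 mut9 libraries all lying above the 3 WT-EF libraries. The call was lost without WT-EF replicate 2 or 3 or mut9 replicate 1 (adjusted p = 0.0898, 0.0733 and 0.0503). The lower gene was HOXC12, with 2, 1 and 1 counts in mut9 against 6, 12 and 6 in WT-EF (adjusted p = 0.0274), and that call was lost whichever of the 6 libraries was left out (adjusted p = 0.0513 to 0.160). HOXB9 did not separate the 2 forms, with a difference of 0.28 (95% interval -0.52 to 1.07). HOXC10 and HOXC13 were not called lower in mut9 by edgeR, but were by DESeq2 (-0.59 and -0.67, adjusted p = 0.0217 and 0.0204), with the filterByExpr filter and with only the compared groups fitted.

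Most of the judged HOXB genes were higher in the tyrosine mutants than in their parent forms, full-length and shortened. In DAF against WT-EF, 8 of the 29 genes were higher (14.3% of all tested genes) and 1 was lower (10.6%). In DAF-mut9 against mut9, 7 of the 29 were higher (5.15% of all tested genes), and by edgeR and by DESeq2 0 were lower (4.68%), with 2 lower at an unadjusted p below 0.05. HOXB2, HOXB3, HOXB4, HOXB6, HOXB7 and HOXB8 were higher in both comparisons, which share no libraries. The median log2 difference over the 9 judged HOXB genes was 0.76 in the first and 0.75 in the second, beside -0.03 and -0.04 over all tested genes, and over the 8 judged HOXC genes it was 0.24 and 0.10. HOXC8 and HOXC9 were not called in DAF against WT-EF. HOXC8 was higher by DESeq2 (0.52, adjusted p = 0.0378), with filterByExpr, on the ComBat values and with only the compared groups fitted. HOXC9 was higher on the ComBat values (0.34, adjusted p = 0.0310) and with only the compared groups fitted.

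HOXB8 was higher by 2.67 ± 0.29 in DAF than in WT-EF (adjusted p = 9.55e-07) and by 2.04 ± 0.28 in DAF-mut9 than in mut9 (adjusted p = 3.29e-05). HOXB2 measured 16.4, 20.7 and 18.8 CPM in DAF and 9.83, 7.96 and 7.98 CPM in WT-EF, a difference of 1.12 ± 0.19 (adjusted p = 0.000148). In the shortened pair HOXB2 measured 22.9, 25.2 and 23.5 CPM in DAF-mut9 and 10.9, 10.9 and 11.7 CPM in mut9, a difference of 1.09 ± 0.19 (adjusted p = 0.000484). At HOXB8 and HOXB2 the libraries of the tyrosine mutants stood above all libraries of their parent forms. The other genes differed less. HOXB3 was higher by 0.56 ± 0.14 and 0.77 ± 0.14, HOXB6 by 0.76 ± 0.16 and 0.65 ± 0.16, HOXB7 by 0.76 ± 0.13 and 0.46 ± 0.13, and HOXB4 by 0.55 ± 0.17 and 0.61 ± 0.17, in the same order of comparisons.

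Several of these smaller calls rested on single libraries. HOXB4 in DAF lost its call without WT-EF replicate 1, 2 or 3 or DAF replicate 2 or 3 (adjusted p = 0.0538, 0.0601, 0.0909, 0.141 and 0.0545), and in DAF-mut9 without mut9 replicate 2 or 3 or DAF-mut9 replicate 1 or 3 (adjusted p = 0.142, 0.0629, 0.0967 and 0.107). In the DAF-mut9 comparison, HOXB7 lost its call without mut9 replicate 1 or DAF-mut9 replicate 1 or 2 (adjusted p = 0.123, 0.107 and 0.0897), and HOXB6 lost its call without DAF-mut9 replicate 1 (adjusted p = 0.0563). HOXB9 measured 5.70, 12.9 and 11.4 CPM in DAF and was higher than in WT-EF by 1.13 ± 0.40 (adjusted p = 0.0444), although the lowest DAF library lay under the highest WT-EF library of 5.93 CPM. Without WT-EF replicate 1, 2 or 3 or DAF replicate 2 or 3 HOXB9 did not pass (adjusted p = 0.123, 0.0858, 0.144, 0.148 and 0.148), nor without a term for the replicate set (adjusted p = 0.0536), nor by DESeq2 (adjusted p = 0.0563). In DAF-mut9 against mut9 the HOXB9 difference of 1.16 ± 0.40 did not pass (adjusted p = 0.0743), although every DAF-mut9 library stood above every mut9 library and it passed with no filter on low counts (adjusted p = 2.81e-08) and with only the compared groups fitted (adjusted p = 1.56e-05). Those 2 settings gave a HOXB9 difference of 1.16 and 1.19, and raised the calls over all tested genes from 3003 to 3808 and 4848. HOXA10, the eighth higher call of DAF against WT-EF, rested on 9, 3 and 7 counts against 3, 2 and 1 (adjusted p = 0.0391), and it was lost in 9 of the 12 alternatives that tested it, the fit without the replicate set among them (adjusted p = 0.0662). Leaving out WT-EF replicate 1 or 3 or DAF replicate 1, 2 or 3 was enough to lose it (adjusted p = 0.114, 0.198, 0.0964, 0.0724 and 0.104).

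The high-numbered genes differed less uniformly. HOXC13 measured 1.28, 1.15 and 1.47 CPM in DAF, below the 2.11, 2.42 and 3.14 CPM of WT-EF, with a difference of -0.96 ± 0.22 (adjusted p = 0.00245). HOXB13 was not called in DAF against WT-EF, but was lower without DAF replicate 3 (-0.57, adjusted p = 0.0469). HOXC10 measured 5.50, 5.65 and 5.75 CPM in DAF-mut9, above the 3.70, 3.80 and 3.14 CPM of mut9, with a difference of 0.67 ± 0.19 (adjusted p = 0.0249). That call was lost without mut9 replicate 2 or 3 or DAF-mut9 replicate 1, 2 or 3 (adjusted p = 0.0787, 0.0968, 0.0666, 0.0578 and 0.104). DAF and DAF-mut9 do not carry the same set of substituted tyrosines, so the 2 comparisons are not repeats of each other. Whether a gene's difference in the full-length pair was unlike that in the shortened pair was tested by an interaction term, and no judged gene passed by edgeR, where 3.33% of all tested genes did, while HOXC4 and HOXC10 had an unadjusted p below 0.05. For HOXB8 the full-length difference exceeded the shortened one by 0.63 ± 0.39 on the log2 scale (adjusted p = 0.510), and for HOXC10 the interaction was -0.82 ± 0.26 (adjusted p = 0.102).

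**Figure D4:**
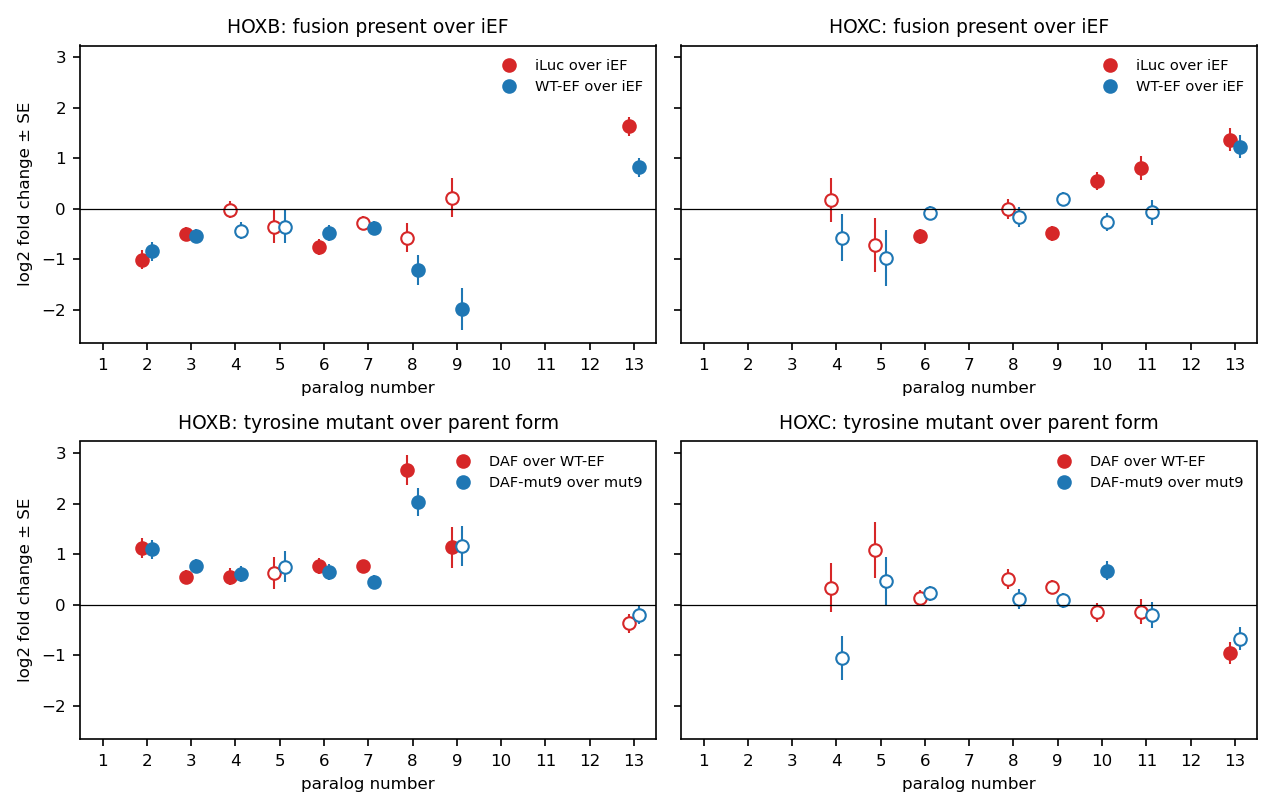
log2 fold change with its SE by paralog number for the judged genes of HOXB (left) and HOXC (right), filled where the adjusted p was below 0.05. Top, iLuc (red) and WT-EF (blue) over iEF; bottom, DAF over WT-EF (red) and DAF-mut9 over mut9 (blue). In HOXB the top points lie at or below 0 up to paralog 8 and above 0 at 13, and the bottom points lie above 0 from 2 to 9 with a peak at 8.

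Genes that act with or upon HOX clusters were compared between iLuc and iEF, where 18.7% of all tested genes were higher and 22.4% lower. Of 9 PBX, MEIS and PKNOX cofactor genes 3 were higher and 3 lower, among them MEIS1 (2.37 ± 0.19 on the log2 scale, adjusted p = 1.99e-09) and PBX3 (-2.49 ± 0.30, adjusted p = 6.90e-07). Of 16 genes of the retinoid pathway 15 were tested, 3 of them higher and 7 lower. ALDH1A3, an enzyme that makes retinoic acid, fell from 24.4 ± 8.51 CPM in iEF to 0.566 ± 0.235 CPM in iLuc (-5.40 ± 0.39, adjusted p = 4.59e-10), RARB, a retinoic acid receptor, from 32.9 ± 16.1 to 0.972 ± 0.158 CPM (-5.07 ± 0.38, adjusted p = 1.07e-09), and ALDH1A1, another such enzyme, was higher by 3.77 ± 0.54 (adjusted p = 7.69e-06). Of 20 chromatin regulators of HOX genes, among them Polycomb and trithorax group genes, 10 were higher and 0 lower by edgeR, by DESeq2 and at an unadjusted p below 0.05, led by the Polycomb readers CBX8 (1.499 ± 0.19, adjusted p = 1.26e-06) and CBX2 (1.32 ± 0.19, adjusted p = 1.07e-05). The median log2 differences were -0.12 for the cofactors, -0.45 for the retinoid genes and 0.39 for the chromatin genes, beside 0.01 over all tested genes.

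In Δ22, where 0.881% of all tested genes were higher and 1.79% lower, edgeR called 1 cofactor gene (lower), 2 retinoid genes (higher) and 1 chromatin gene (lower), and DESeq2 called 2 retinoid genes lower as well. The higher retinoid genes were ALDH1A1 (2.62 ± 0.54, adjusted p = 0.0119) and CRABP1, a binding protein for retinoic acid (2.01 ± 0.34, adjusted p = 0.00294). ALDH1A1 lost its call without iEF replicate 3 or Δ22 replicate 3 (adjusted p = 0.0841 and 0.101). ALDH1A1 was not particular to Δ22. It was higher than in iEF also in mut9 (4.16), iLuc (3.77), WT-EF (3.24), DAF (2.80) and DAF-mut9 (2.07, kept in 6 of 13 alternatives). The part of ALDH1A1 and CRABP1 in the HOXB8 level was not tested. Of CDX1, CDX2, CDX4 and GDF11, which act on the high-numbered end of the clusters in the embryo, only GDF11 was tested, and it was higher in all 6 groups than in iEF, by 0.53 in Δ22 to 1.18 in iLuc on the log2 scale. The Δ22 call of GDF11 was lost without iEF replicate 2 or 3 or Δ22 replicate 2 or 3 (adjusted p = 0.0567, 0.109, 0.0588 and 0.109).

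Other transcripts within the clusters were also compared between iLuc and iEF. Of 17 listed, 10 were tested, with 4 higher (18.7% of all tested genes) and 0 lower by edgeR and by DESeq2 (1 lower at an unadjusted p below 0.05), led by PRAC1 (2.39 ± 0.43, adjusted p = 0.000114), HOTAIR (1.72 ± 0.25, adjusted p = 1.08e-05) and PRAC2 (1.68 ± 0.26, adjusted p = 2.24e-05). PRAC1 and PRAC2 lie between HOXB9 and HOXB13, and HOTAIR is a long noncoding RNA that starts at HOXC11. By comparison, of the 9 genes of the HOXD cluster, set beside the others as the remaining cluster, 7 were higher and 1 lower than iEF in each of iLuc (18.7% and 22.4% of all tested genes), WT-EF (11.4% and 16.9%) and mut9 (6.22% and 8.33%). In mut9 the 8 HOXD calls became 5 without iEF replicate 1. In Δ22, DAF and DAF-mut9 0 were called by edgeR or under any alternative run, DESeq2 included, with 1, 1 and 0 at an unadjusted p below 0.05.

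Where annotated exons overlap, reads of a neighbour may be counted or reads of the gene itself left out. Which of these applies is open, since the annotation release and strand setting of the counting are not known here. In GENCODE v44 on GRCh37, HOXB7, HOXB8, HOXB9, HOXB13, HOXC8, HOXC11 and HOXC12 share no exonic base with another gene. HOXC5 shares 67.3% of its exonic length on its own strand, HOXC4 17.5% and HOXC6 16.1%, so their levels and those of HOXB6 are uncertain. HOXB8 lies at chr17:46688739-46692654 and HOXB13 at chr17:46802125-46806112, both on the minus strand, with no annotated exon of another gene over theirs.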

How the data were processed

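RNA-seq was done on 21 libraries of A673 cells in 7 groups of 3, grouped by the shRNA and cDNA labels. The authors made paired-end libraries, aligned reads to hg19 with STAR and deposited raw counts per Ensembl gene from htseq-count run intersection-strict. Which annotation was used, and whether strand was, is not given in the sources used here. The authors also deposited counts adjusted for the replicate set with ComBat, a signal not scaled for library size, used here as an alternative after rounding. A deposited table of the authors' DESeq2 comparisons (log2 fold changes and p-values) was not used. The table's 5 summary lines are blank. Depth was 32.9 to 46.2 M counts per library, and limits of 3 counts cover counting error only.

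R 4.3.3 and edgeR 4.0.16 were used. Genes averaging 1 count or more per library were tested, 30549 in all, after TMM scaling, by quasi-likelihood in a model of group plus replicate set over all 21 libraries. The set term follows the authors, who adjusted their counts for it. Benjamini-Hochberg adjustment ran over all tested genes, with calls at an adjusted p below 0.05. CPM are TMM-scaled, per kb of GENCODE v44 exon where said, and 95% intervals are the estimate with 1.96 SE to each side. Deviations from group means correlated at -0.03 to 0.23 (median 0.08) between same-numbered libraries of 63 pairs. Between different-numbered libraries of 126 pairs they correlated at -0.18 to 0.12 (median -0.04). Same-numbered libraries were thus slightly more alike, but the ranges overlapped, so the data alone do not settle whether equal numbers share a source. The set term stands on the authors' treatment of sets as batches. Each of the 21 replicate pairs within groups differed by more than counting noise (chi-square per degree of freedom at least 15.7).

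The members, lists, comparisons and rules were chosen with earlier results of these data known. Every member is accounted for. Members with a highest group mean of at least 1 CPM that were called in a comparison with iEF are given by library. A member with no group mean of 10 counts was too low to judge. In each list, up to 3 genes with the largest called differences in iLuc were named (some are not reported here), and HOXB-AS3 and CRABP1 were added after their values were seen. Comparisons among Δ22, DAF and DAF-mut9, the interaction of the tyrosine substitutions with the form of EWS, and alternatives for pairs other than those with iEF and for the lists, were added after seeing the data. Alternatives were RLE scaling, DESeq2 1.42.0, other filters, no replicate term, only the compared groups, the ComBat values, a 2-fold requirement and leaving out each library. Scripts were tested on simulated data.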

Additional observations from a re-analysis of the deposited data

How the results depend on the processing

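No called difference changed sign under any alternative. The count of HOX members called was 10 in iLuc, 8 in WT-EF, 2 in Δ22, 2 in DAF, 4 in mut9 and 1 in DAF-mut9 against iEF, 6 for WT-EF against iLuc, 2 for mut9 against WT-EF, 9 for DAF against WT-EF and 7 for DAF-mut9 against mut9. With a 2-fold change also required these became 4 in iLuc, 3 in WT-EF, 1 in Δ22, 1 in DAF, 1 in mut9, 1 for WT-EF against iLuc, 4 for DAF against WT-EF and 2 for DAF-mut9 against mut9. Fitting only the 6 libraries compared gave 3 in iLuc, 1 in Δ22, 2 in mut9 and 6 for mut9 against WT-EF. Over all tested genes this fit changed the calls from 12560 to 8768 in iLuc and from 817 to 774 in Δ22. In mut9 they went from 4445 to 3028, and for mut9 against WT-EF from 1878 to 5116. In DAF-mut9 against iEF the HOX members called were 2 with RLE, 4 with DESeq2, 3 with no filter on low counts, 2 with the filterByExpr filter and 3 on the ComBat values, and for mut9 against WT-EF 4 with DESeq2 and 1 with no filter. Over all tested genes the main fit called 1038 in DAF-mut9. The same settings, in that order, called 1016, 1508, 2243, 1079 and 864. For mut9 against WT-EF, DESeq2 called 2637 of all tested genes and the fit with no filter 2775. In Δ22 the HOX members called were 4 on the ComBat values, where 617 of all tested genes were called. Without the replicate block, the pairing by set, the Δ22 count was 1 (508 over all tested genes), and the other HOX counts stayed within 1.5 times the main value. The cause was not tested.

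Leaving out 1 library gave 7 to 11 calls in iLuc, 5 to 9 in WT-EF, 1 to 3 in Δ22, 1 to 3 in DAF, 2 to 4 in mut9, 1 to 2 in DAF-mut9, 4 to 6 for WT-EF against iLuc, 0 to 2 for mut9 against WT-EF, 6 to 8 for DAF against WT-EF and 3 to 7 for DAF-mut9 against mut9. Gained without 1 library and under no other alternative were HOXB9 in iLuc without iLuc replicate 3 (0.80), HOXB13 in DAF without iEF replicate 2 (0.67), HOXC13 in mut9 without mut9 replicate 1 (0.75), HOXB13 in DAF against WT-EF without DAF replicate 3 (-0.57) and HOXC13 in DAF-mut9 against mut9 without mut9 replicate 1 (-0.83). HOXB4 in WT-EF passed without iEF replicate 3 (-0.61), with RLE, DESeq2 and filterByExpr and on the ComBat values, HOXC12 in WT-EF without iEF replicate 2 (2.07) and on the ComBat values, and HOXC13 in mut9 against WT-EF without mut9 replicate 2 (-0.86), with DESeq2 and filterByExpr and with only the compared groups. Depth limits HOXA, HOXB1 and HOXC12, where a few counts decide.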
